A study of Mus musculus with 8 samples.

Results

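The 10 genes described here encode transcription factors of the ETS family: Etv1, Etv4, Etv5, Etv6, Ets1, Ets2, Elk1, Elk3, Elk4 and Gabpa. They were taken by symbol from a deposited table of raw read counts for 52636 gene identifiers, measured by RNA sequencing in 8 libraries of mouse epiblast at embryonic day 5.5. All 10 passed the filter on low counts, as did 18321 genes in all. The labels give every group the genotype Sox2Cre;CRAFR26, by which the controls hold the Cre and the construct too. Sox2Cre drives recombination in the epiblast, the tissue that forms the embryo proper, and the construct, brought into the mouse line through targeted embryonic stem cells, switches on the MAP kinase ERK when tamoxifen is given. Embryos were cultured for 4 h with 250 nM 4-hydroxytamoxifen (4OHT) or with ethanol vehicle, in 2 clones of the line, clone 4 and clone 8. The 4 groups were vehicle clone 4, vehicle clone 8, 4OHT clone 4 and 4OHT clone 8, with 2 libraries each. Each library was a pool of 10 epiblasts dissected free of the extraembryonic layers and made from 7 ng of RNA with a low-input kit. Titles and time labels of the vehicle libraries say 0 h, while their treatment label gives 4 h in ethanol, so 4 h of culture and 4OHT cannot be told apart if the titles are right. Nothing in the labels says that the libraries of 1 clone came from separate litters, and p-values measure the spread between these libraries.

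ETS proteins bind DNA through a shared domain that reads a GGAA core, and many of them are end points of the ERK pathway. Etv1, Etv4 and Etv5, the PEA3 group, are activators whose transcription follows FGF and ERK signalling in many embryonic tissues and whose genes are held down by the repressor Capicua. Ets1 and Ets2 are activators that ERK phosphorylates directly, and Ets2 is required in the trophoblast. Elk1, Elk3 and Elk4 are ternary complex factors, which sit with serum response factor (SRF) on immediate early genes and are switched by phosphorylation. Etv6 is a repressor, and Gabpa is the DNA-binding subunit of a factor that serves housekeeping and mitochondrial genes together with Gabpb1. The study asked which transcripts respond to ERK, and these genes are both effectors and targets of that pathway.

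Libraries differed in depth and in the levels of markers of other tissues. Vehicle libraries held 33.3 to 38.0 M counts (M, mega) and 4OHT libraries 56.4 to 72.5 M. Levels are given in CPM, counts per 1 M of library size after scaling. All 10 epiblast markers were above 1 CPM in every library, but so were 16 of 18 visceral endoderm and 14 of 14 extraembryonic ectoderm markers. The summed extraembryonic ectoderm markers stood at 1266 and 887 CPM in vehicle clone 4, 519 and 568 in vehicle clone 8, 1215 and 1289 in 4OHT clone 4, and 1281 and 1079 in 4OHT clone 8. The visceral endoderm sums in the same order of groups were 1001 and 656, 2038 and 2075, 2891 and 3312, and 590 and 1453 CPM. Epiblast markers summed to 5915 and 6390 CPM in vehicle clone 4, 5859 and 6057 in vehicle clone 8, 5637 and 5168 in 4OHT clone 4, and 5203 and 5030 in 4OHT clone 8, so every vehicle library lay above every 4OHT library. Of these 10 markers, Sox2, Pou5f1 and Utf1 fell in clone 8 and none was called in clone 4. Over all tested genes, 8.60% were called lower in clone 8 and 0.0382% were called in clone 4. Of 10 markers of vessels, blood and decidua, Emcn was at 0 in all libraries and 2 were above 1 CPM in all. Mitochondrially encoded genes took 1.35% and 1.19% of the counts in 4OHT clone 8 and 0.205% to 0.619% in the other libraries. Esr1, the oestrogen receptor gene, was counted as a check of the construct, whose sequence is not given in the sources used here. Its counts were 7 to 24 with vehicle (0.187 to 0.723 CPM) and 342 to 438 with 4OHT (5.92 to 6.76 CPM). The labels give all groups the construct, and whether these reads come from it was not tested. If the construct differed between the treatments, that difference could not be told apart from 4OHT in any comparison here. The vehicle clone 8 libraries stood apart from vehicle clone 4 in the summed extraembryonic ectoderm and visceral endoderm markers. Any response within clone 8 is read against them.

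The sequences around the gene starts were searched for motifs of the family and its regulators. RefSeq starts on GRCm38.p6 were matched for 8 of the 10 genes, with 12 starts among them (Etv4 and Ets1 were not matched). In the 250 bases before each start, both strands were searched for CCGGAAG, a strong ETS site, TGAATGAA and TGAATGGA, both Capicua octamers, TGANTCA, the AP-1 site, and the CArG box of SRF. The ETS site is shown in Elk4 and Gabpa, the only 2 of the 12 starts that held it, with the matched letters in capitals.
Elk4, chr1:132007542-132007568, plus strand: ggcccctcccCCGGAAGtgacgctcgc
Gabpa, chr16:84835021-84835047, plus strand, where the match reads on the minus strand: agggtaagtgCTTCCGGgtccctcagc
The matches begin 68 bases before the Elk4 start and 93 bases before the Gabpa start. All 250 bases of the Gabpa window lie in annotated exons, counted over genes of either strand, so its site is in sequence annotated as transcribed. The window begins at 84834874, before the annotated Gabpa gene at 84834925, so not all of these exons are those of Gabpa. Exons of Atp5j, on the opposite strand, overlap those of Gabpa. In the Elk4 window 13 bases lie in annotated exons. The same site was in 6.91% of all 32851 promoters searched. The Capicua octamers, the AP-1 site and the CArG box were in none of the 12 windows, against 1.08%, 1.01%, 6.75% and 1.47% of all promoters. The inner start of Etv5, the most highly expressed of the 10 genes, is shown because its window held 3 copies of TGAATG, the 6 letters that both Capicua octamers share. That search was added after the Etv5 sequence had been read. Capitals mark the copies, on either strand.
Etv5, chr16:22438369-22438618, minus strand: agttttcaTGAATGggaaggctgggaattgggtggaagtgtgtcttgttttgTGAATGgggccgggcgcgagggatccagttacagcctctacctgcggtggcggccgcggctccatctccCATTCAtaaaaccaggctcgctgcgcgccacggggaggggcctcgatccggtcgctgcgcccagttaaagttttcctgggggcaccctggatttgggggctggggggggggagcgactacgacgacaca
This window lies within the annotated Etv5 gene and outside its annotated exons. The copies begin 242, 198 and 129 bases before the start, the third on the opposite strand. TGAATG was in 10.9% of all promoters and in 1 of the 12 starts here, and 0.131% of all promoters held 3 or more copies. These matches describe the letters of the windows and show no binding.

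Levels of different genes were compared as CPM per kilobase of exon (RPKM). Etv5 was the leading transcript, with 71.0 ± 23.1 RPKM in vehicle (SD, n = 4), and it made up 47.6% to 58.5% of the summed RPKM of the 10 genes across the 8 libraries. It was above every other member in all 8 libraries. Etv4 followed with 19.8 ± 1.45 RPKM and Gabpa with 18.7 ± 4.56 RPKM (SD, n = 4 each), and these 2 could not be ranked because their ranges overlapped. Ets2 stood next at 7.89 ± 3.56 RPKM, apart from both neighbours in the order. Etv6 at 3.22 ± 0.392, Elk1 at 3.22 ± 0.407 and Etv1 at 2.62 ± 0.469 RPKM formed an overlapping set, although Elk1 was above Etv1 in all 8 libraries. That order depended on the exon lengths used, 13296 bases for Etv1 and 5381 for Elk1. Without division by length, the vehicle mean of Etv1 was the higher, at 34.9 CPM against 17.3 for Elk1. The vehicle means of Gabpa and Etv4 were likewise apart in CPM, at 106 and 61.5. Elk4 at 0.969 ± 0.204 and Ets1 at 0.649 ± 0.106 RPKM overlapped. Elk3 was lowest at 0.223 ± 0.0526 RPKM, with 28 to 125 counts per library, so its values are the least precise. Within the PEA3 group the level of Etv5 was thus well above those of Etv4 and Etv1, and among the ternary complex factors the order was Elk1, Elk4, Elk3.

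**Figure D1:**
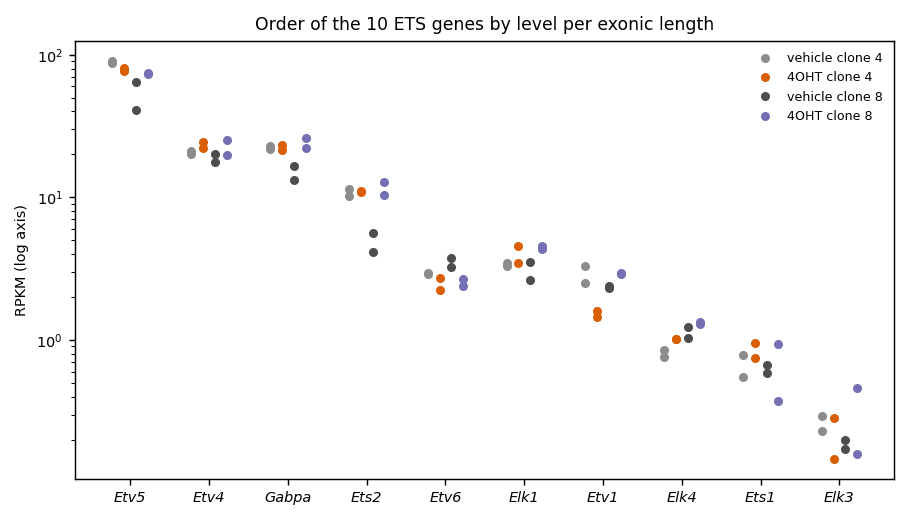
RPKM (log axis) of the 10 ETS genes in the 8 libraries, ordered by vehicle mean. Each point is 1 library, coloured by group. Etv5 lies above all others, and Elk3 is lowest in vehicle at 0.223 RPKM.

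Across the 8 libraries Elk3 spread most, 3.13-fold from lowest to highest, followed by Ets2 at 3.08-fold and Ets1 at 2.57-fold. Etv4 spread least, at 1.41-fold. Ets2 reached this spread on 864 to 4608 counts per library, whereas Ets1 had 156 to 474.

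In clone 4, none of the 10 genes was called in the comparison of 4OHT with vehicle (edgeR's quasi-likelihood test, Benjamini-Hochberg adjusted p under 0.05 over all tested genes). The background in that clone was 0.0382% of genes called. Unadjusted, 1 member had a p under 0.05, Etv1, against 9.90% of all genes. DESeq2 called 1, also Etv1, where it called 1.49% of the 30973 genes it tested. The median log2 fold change of the members was 0.00, and that of all tested genes was -0.00. In clone 8, 2 of the 10 rose, Ets2 and Gabpa, and none fell, where 16.6% of all genes were called, 8.00% higher and 8.60% lower. Scaling by library totals moved the median of all genes in clone 8 to 0.19 and the higher share of all calls from 48.2% to 66.2%, and Ets2 and Gabpa stayed the only members called. The members' median log2 fold change there was 0.39 against 0.07 for all genes, and 9 of 10 had a positive value against 53.7% of all genes. The libraries of clone 8 did not overlap between treatments for 7 of the 10 genes, 6 above and 1 below, and in clone 4 for 6, 3 above and 3 below. With 2 libraries a group this was common, at 60.0% of all genes in clone 8, 31.7% above and 28.3% below, and 47.6% in clone 4, with 23.8% each way.

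**Figure D2:**
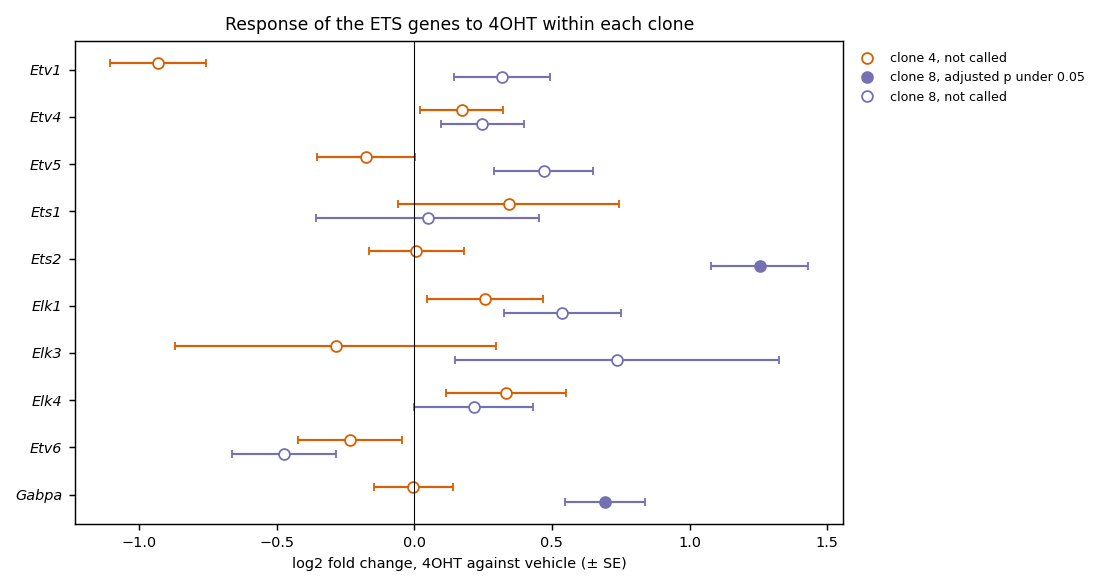
Log2 fold change of 4OHT against vehicle (x axis) for each ETS gene in clone 4 and clone 8, with bars of 1 SE from the edgeR fit of 8 libraries. Filled points passed an adjusted p under 0.05, which only Ets2 (1.25) and Gabpa (0.69) in clone 8 did.

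Among the PEA3 genes, Etv5 (ENSMUSG00000013089, chr16:22381309-22439719 in GRCm38, minus strand) was at 359 and 373 CPM in vehicle clone 4 and 332 and 315 in 4OHT clone 4. In clone 8 it was at 169 and 266 CPM in vehicle and 298 and 304 in 4OHT. The 4OHT libraries were thus below vehicle in clone 4 and above it in clone 8, without overlap in either, and the vehicle libraries of clone 8 were the lowest of all. Its log2 fold change was -0.18 ± 0.18 (SE) in clone 4, adjusted p = 0.826, and 0.47 ± 0.18 in clone 8, adjusted p = 0.102, by edgeR, and neither passed. Without an expression filter the clone 8 value was 0.50 with an edgeR adjusted p of 0.00564. Without vehicle clone 8 replicate 2, the higher of those 2 libraries, the clone 8 value was 0.80 with an edgeR adjusted p of 0.0102, and without replicate 1 it was 0.15 with 0.499.

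Etv4 (ENSMUSG00000017724, chr11:101769742-101785371, minus strand) was the steadiest of the 10. It was at 65.7 and 62.3 CPM in vehicle clone 4, 75.5 and 68.8 in 4OHT clone 4, 55.1 and 62.7 in vehicle clone 8, and 61.9 and 77.9 in 4OHT clone 8. The 4OHT libraries lay above vehicle in clone 4, and in clone 8 the groups overlapped. Neither change, 0.17 ± 0.15 in clone 4 and 0.25 ± 0.15 in clone 8 on the log2 scale (SE), passed the edgeR test, with adjusted p of 0.794 and 0.285.

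Etv1 (ENSMUSG00000004151, chr12:38779380-38870484, plus strand) moved apart between the clones. In clone 4 it was at 33.1 and 44.1 CPM in vehicle and 19.3 and 21.2 in 4OHT. In clone 8 it was at 31.7 and 30.5 CPM in vehicle and 38.6 and 39.1 in 4OHT. The 4OHT libraries of clone 4 were the lowest of the 8, and those of clone 8 lay above their vehicle libraries. The log2 fold changes were -0.93 ± 0.17 in clone 4 (edgeR adjusted p = 0.0904) and 0.32 ± 0.17 in clone 8 (adjusted p = 0.232). The difference between the clones, 1.25 ± 0.25, passed with an edgeR adjusted p of 0.0406. The clone 4 change passed with DESeq2 (-0.93, adjusted p = 0.000213) and in edgeR without an expression filter (-0.91). Of 16 alternatives, 4 called it and 12 did not. As libraries were left out in turn, the clone 4 value ran from -1.12 to -0.71. Visceral endoderm markers moved with Etv1 in the opposite sense, with all 18 positive in clone 4 and 17 of 18 negative in clone 8, and their part in this result was not tested.

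Of the other activators, Ets2 (ENSMUSG00000022895, chr16:95702075-95721051, plus strand) gave the largest response of the 10 in clone 8. It was at 24.1 and 32.2 CPM in vehicle clone 8 and at 60.1 and 74.2 in 4OHT clone 8. In clone 4 it was at 66.6 and 59.4 CPM in vehicle and 62.7 and 64.0 in 4OHT. The 2 vehicle libraries of clone 8 were low and the other 6 libraries lay together, so 4OHT clone 8 lay near the level that clone 4 had with and without 4OHT. Ets2 rose 2.39-fold in clone 8, a log2 fold change of 1.25 ± 0.18 (SE) with an edgeR adjusted p of 0.0085, and gave 0.01 ± 0.17 in clone 4, adjusted p = 0.996. The difference of 1.25 ± 0.25 between the clones passed with an edgeR adjusted p of 0.0418.

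Markers of extraembryonic ectoderm followed the same libraries as Ets2. In clone 8, 10 of the 14 rose with 4OHT and none fell. In vehicle, 10 of the 14 were lower in clone 8 than in clone 4. Of all genes, 8.00% were called higher with 4OHT in clone 8, and 4.31% lower in vehicle clone 8. Elf5, an ETS gene outside the 10 and a regulator of trophoblast stem cells, was at 91.2 and 55.8 CPM in vehicle clone 4, 16.4 and 24.3 in vehicle clone 8, 93.7 and 95.3 in 4OHT clone 4, and 61.1 and 89.8 in 4OHT clone 8. Elf5 thus was low in the libraries in which Ets2 was low. In pooled tissue, fewer cells of a type and less RNA per cell cannot be told apart, and the part of extraembryonic ectoderm in the Ets2 values was not tested.

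**Figure D3:**
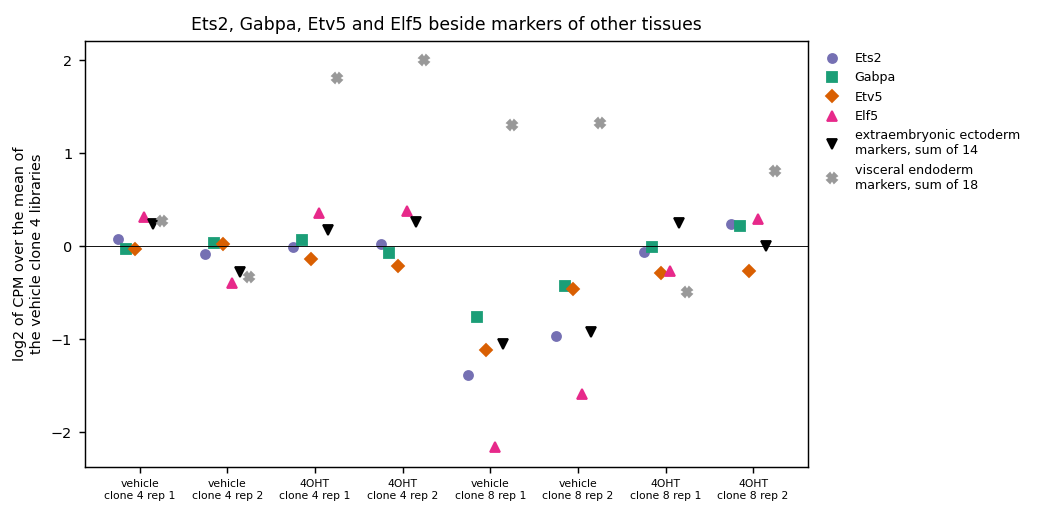
Log2 ratio of each library's CPM to the mean of the vehicle clone 4 libraries (y axis) for Ets2, Gabpa, Etv5 and Elf5 and for the summed markers of 2 other tissues, with 1 point per library. The vehicle clone 8 libraries are low for all 4 genes and for the extraembryonic ectoderm sum (519 and 568 CPM), and high for the visceral endoderm sum (2038 and 2075 CPM) relative to vehicle clone 4.

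Ets1 (ENSMUSG00000032035, chr9:32636221-32757820, plus strand) was scarce. Its values were 6.69 and 4.64 CPM in vehicle clone 4, 8.09 and 6.30 in 4OHT clone 4, 4.99 and 5.69 in vehicle clone 8, and 3.15 and 7.91 in 4OHT clone 8. Groups overlapped in both clones, and the 4OHT clone 8 replicates lay on opposite sides of their vehicle libraries. Log2 fold changes of 0.34 ± 0.40 and 0.05 ± 0.40 (SE) in clone 4 and clone 8 had edgeR adjusted p of 0.857 and 0.947, and the clone 8 value ran from -0.77 to 0.57 as libraries were left out in turn.

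The ternary complex factors were low and none was called. Elk1 (ENSMUSG00000009406, chrX:20933395-20950608, minus strand) was at 17.7 and 18.5 CPM in vehicle clone 4, 24.7 and 18.5 in 4OHT clone 4, 14.1 and 18.9 in vehicle clone 8, and 23.3 and 24.7 in 4OHT clone 8. The 4OHT libraries lay above vehicle in both clones, by a narrow margin in clone 4. Its log2 fold change was 0.26 ± 0.21 in clone 4 (edgeR adjusted p = 0.777) and 0.54 ± 0.21 in clone 8 (adjusted p = 0.111). Its exons overlap those of Uxt on the same strand, whose own log2 fold change in clone 8 was -0.85 (edgeR adjusted p = 0.0129). Uxt was at 36.0 and 32.3 CPM in vehicle clone 8, 19.5 and 18.5 in 4OHT clone 8, and 20.9 to 24.8 in clone 4. How reads of shared bases were counted is not given in the sources used here.

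Elk4 (ENSMUSG00000026436, chr1:132007607-132032612, plus strand) was at 4.90 and 5.45 CPM in vehicle clone 4, 6.51 and 6.52 in 4OHT clone 4, 6.66 and 7.83 in vehicle clone 8, and 8.57 and 8.26 in 4OHT clone 8. The 4OHT libraries were above vehicle within each clone, by less than the clones differed in vehicle. The log2 fold changes of 0.33 ± 0.22 and 0.22 ± 0.22 (SE) had edgeR adjusted p of 0.718 in clone 4 and 0.527 in clone 8. Elk3 (ENSMUSG00000008398, chr10:93247414-93311135, minus strand) was at 1.34 and 1.04 CPM in vehicle clone 4, 1.29 and 0.667 in 4OHT clone 4, 0.780 and 0.904 in vehicle clone 8, and 0.722 and 2.09 in 4OHT clone 8. The treatments overlapped in both clones, and 1 library, 4OHT clone 8 replicate 2, was the highest. Its changes, -0.29 ± 0.58 and 0.74 ± 0.59 on the log2 scale, did not pass (edgeR adjusted p = 0.928 and 0.419), and without that library the clone 8 value was -0.23. Exons of Elk3 overlap those of Cdk17, and exons of Elk4 those of Mfsd4a, both on the opposite strand, so their reads may be mixed.

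The repressor Etv6 (ENSMUSG00000030199, chr6:134035700-134270158, plus strand) was the only member whose 4 vehicle libraries lay apart from all 4 of 4OHT, and they lay above. It was at 17.8 and 17.3 CPM in vehicle clone 4, 16.4 and 13.4 in 4OHT clone 4, 19.4 and 22.5 in vehicle clone 8, and 14.2 and 16.0 in 4OHT clone 8. Such separation over both clones was seen in 9.00% of all tested genes, with 4OHT higher in 3.42% and lower in 5.58%. The change did not pass in either clone, at -0.24 ± 0.19 in clone 4 and -0.47 ± 0.19 in clone 8 on the log2 scale (SE), with edgeR adjusted p of 0.769 and 0.115, nor over both clones, at -0.35 ± 0.15 with 0.275. The summed epiblast markers were separated by treatment in the same way, and their part in the Etv6 values was not tested. Single markers differed in this. Pou5f1 and Otx2 were separated too. Dnmt3b, the most abundant, overlapped, at 2637 to 3188 CPM in vehicle and 2409 to 2785 in 4OHT. Fgf4 had positive log2 fold changes, 0.42 in clone 4 and 0.54 in clone 8.

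Gabpa (ENSMUSG00000008976, chr16:84834925-84863779, plus strand) was at 125 and 130 CPM in vehicle clone 4, 133 and 121 in 4OHT clone 4, 75.0 and 94.7 in vehicle clone 8, and 126 and 148 in 4OHT clone 8. As with Ets2, the vehicle clone 8 libraries were the low ones, and those of 4OHT clone 8 lay near the level of clone 4. Gabpa rose 1.62-fold in clone 8, a log2 fold change of 0.69 ± 0.14 (SE) with an edgeR adjusted p of 0.0168, and gave -0.00 ± 0.14 in clone 4 with 0.997. The clone difference of 0.70 ± 0.20 stayed above the threshold (edgeR adjusted p = 0.0966; 0.0466 with DESeq2). Its exons overlap those of Atp5j, which lies on the opposite strand and encodes a subunit of ATP synthase. Atp5j moved the other way, from 475 and 411 CPM in vehicle clone 8 to 275 and 289 in 4OHT clone 8 (log2 fold change -0.65, edgeR adjusted p = 0.0108). It was at 312 and 316 CPM in vehicle clone 4 and 305 and 275 in 4OHT clone 4, so vehicle clone 8 was the high group. The share of mitochondrially encoded counts was also highest in 4OHT clone 8, as given above, and its part in the Gabpa values was not tested.

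**Figure D4:**
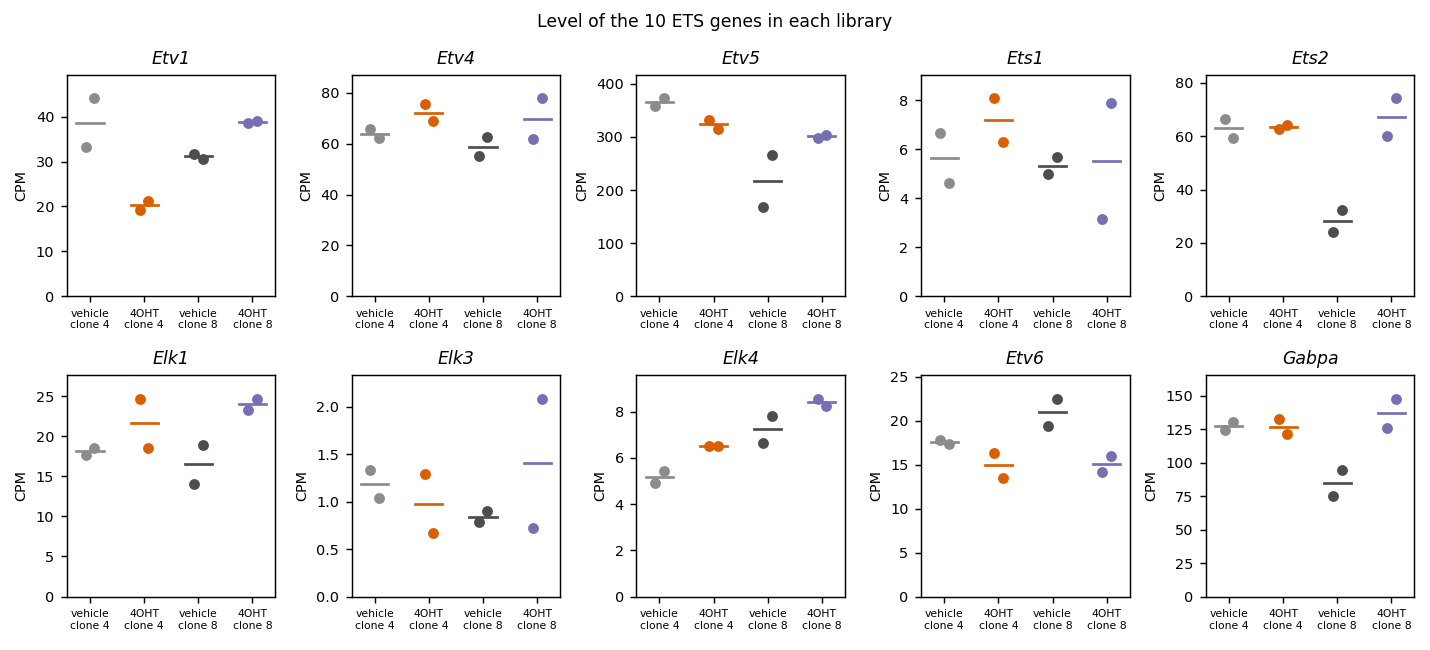
CPM of the 10 ETS genes (y axes from 0) in the 4 groups of treatment and clone. Each point is 1 library and each bar is the mean of 2. For Ets2 and Gabpa the vehicle clone 8 libraries (24.1 and 32.2 CPM, and 75.0 and 94.7 CPM) lie below all others.

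The calls in clone 8 depended on single libraries. Without vehicle clone 8 replicate 1, no gene of the whole table was called in that clone, and Ets2 gave 1.04 (edgeR adjusted p = 0.0790) and Gabpa 0.51 (adjusted p = 0.159). Gabpa was also lost without 4OHT clone 8 replicate 2, at 0.57 with an edgeR adjusted p of 0.0532. In a fit of the clone 8 libraries alone, Ets2 gave 1.23 (edgeR adjusted p = 0.0578) and Gabpa 0.67 (adjusted p = 0.0757).

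The difference between the clones' responses was called for 2 of the 10 genes, Etv1 and Ets2, both higher in clone 8, where 2.83% of all genes were called, 1.08% higher and 1.75% lower. Unadjusted, 4 members had a p under 0.05, against 22.7% of all genes. The members' median difference was 0.46 on the log2 scale against 0.05 for all genes. Both calls depended on single libraries. Etv1 kept its call only without 4OHT clone 8 replicate 1 or replicate 2, with values of 0.998 to 1.41 over the 8 libraries left out. Ets2 kept it without either of those or without vehicle clone 8 replicate 2, with values of 1.02 to 1.44.

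Over both clones, with clone as an additive term, none of the 10 genes was called by edgeR, where 0.00546% of all genes were called. DESeq2, which called 2.66% of the 30973 genes it tested, called none of the 10. At an unadjusted p under 0.05 there were 3 members, against 16.9% of all genes. Ets2 had the largest value, 0.63 ± 0.24 (SE, edgeR adjusted p = 0.245), with 65.3 ± 6.19 CPM in 4OHT and 45.6 ± 20.6 in vehicle (SD, n = 4 each). The spread of the vehicle libraries of Ets2 was that between the clones. Elk1 gave 0.40 ± 0.16 (edgeR adjusted p = 0.27) and Gabpa 0.34 ± 0.16 (adjusted p = 0.304).

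The libraries of the 2 clones also differed under vehicle. From the labels, clone cannot be told apart from litter or dissection in this comparison. In vehicle, 3 of the 10 genes were lower in clone 8 than in clone 4 and none was higher, where 8.37% of all genes were called, 4.06% higher and 4.31% lower. The same 3 were those at an unadjusted p under 0.05, against 25.7% of all genes. Clone 8 minus clone 4 on the log2 scale was -1.16 ± 0.18 for Ets2 (SE, edgeR adjusted p = 0.0174), -0.75 ± 0.18 for Etv5 (adjusted p = 0.0391) and -0.59 ± 0.14 for Gabpa (adjusted p = 0.0421). This comparison shares the vehicle clone 8 libraries with the response in clone 8, where the same 3 genes gave 1.25, 0.47 and 0.69. All 3 calls were lost when vehicle clone 8 replicate 1, vehicle clone 4 replicate 1 or vehicle clone 4 replicate 2 was left out, and those of Etv5 and Gabpa also without either 4OHT clone 4 library. Elk4 had the largest positive value, 0.49 ± 0.22, which did not pass (edgeR adjusted p = 0.203).

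The rest of the ETS family was covered by 17 further genes, of which 13 were tested and Etv3l was at 0 in all libraries. None was called in clone 4. In clone 8, 2 rose and 1 fell, with a median log2 fold change of -0.01. The share of all genes called there was 16.6%, with 8.00% higher and 8.60% lower. Elf5 rose by 1.89 ± 0.28 on the log2 scale (SE, edgeR adjusted p = 0.0089). Elf2, a widely expressed member, rose by 0.55 ± 0.15 (adjusted p = 0.0415) from 51.2 and 53.4 to 69.0 and 84.0 CPM. Etv2, which specifies blood and endothelium, fell by 0.95 ± 0.26 on the log2 scale (edgeR adjusted p = 0.0397) from 9.17 and 6.75 to 4.46 and 3.79 CPM. In vehicle, Elf5 was lower in clone 8 than in clone 4, with a log2 value of -1.85 (edgeR adjusted p = 0.0174), and Erf, a repressor that ERK exports from the nucleus, was higher, with 1.21 (adjusted p = 0.0323). Erf was named after its value was seen. Elf2 kept its call in clone 8 only without 4OHT clone 8 replicate 1, and Etv2 only without that library or without vehicle clone 8 replicate 2, when libraries were left out in turn.

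Of 16 partners and regulators of these factors, none was called in clone 4. In clone 8, 1 rose and 1 fell, with a median of 0.03, where 16.6% of all genes were called. Gabpb1, the partner of Gabpa, rose by 0.44 ± 0.13 (SE, edgeR adjusted p = 0.0494), from 69.3 and 81.5 CPM in vehicle to 99.1 and 106 in 4OHT. It lay at 112 and 122 CPM in vehicle clone 4, so like Gabpa it was low in vehicle clone 8. Srf, the partner of the Elk proteins, fell by 0.94 ± 0.20 on the log2 scale (edgeR adjusted p = 0.0192). It was at 31.2 and 23.6 CPM in vehicle clone 8, 14.8 and 13.8 in 4OHT clone 8, and 9.47 to 12.0 in the 4 libraries of clone 4. In vehicle, 5 of the 16 differed between clones, where 8.37% of all genes were called. Srf was higher in clone 8 by 1.42 (edgeR adjusted p = 0.0162), Cop1, which marks PEA3 proteins for degradation, by 1.43 (adjusted p = 0.0215), and Cic, which encodes Capicua, by 0.71 with an adjusted p that lay just under the threshold. Gabpb1 was lower, with -0.63 (edgeR adjusted p = 0.028), and so was Ddb1, a subunit of the ligase that uses Cop1 and the most abundant of the list, with -0.55 (adjusted p = 0.0379). Cop1 and Cic were named after their values were seen. None of these 5 calls held without vehicle clone 8 replicate 1 or without either vehicle clone 4 library. In clone 8 the Gabpb1 call was lost whichever of the 8 libraries was left out and with RLE size factors (edgeR adjusted p = 0.0562), and the Srf call without 4OHT clone 8 replicate 2 (adjusted p = 0.0507).

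Target genes of the pathway were read as 2 lists. Of 7 Capicua and ERK feedback targets, 2 rose and 1 fell in clone 8, with a median of 0.05. None was called in clone 4, where the median was 0.12 and 6 of 7 were positive, against 49.3% of all genes. Among all genes, 8.00% were called higher and 8.60% lower in clone 8. Dusp6, an ERK phosphatase and the most abundant of the list, rose by 0.79 ± 0.18 (SE, edgeR adjusted p = 0.02), from 150 and 184 to 240 and 339 CPM. Spry4, a feedback inhibitor, rose by 0.91 ± 0.21 (adjusted p = 0.0213), and Spred1, another, fell by 0.58 ± 0.17 on the log2 scale (edgeR adjusted p = 0.046). The Dusp6 call was lost without 4OHT clone 8 replicate 2 (edgeR adjusted p = 0.0658), and the Spred1 call held only without 4OHT clone 8 replicate 1 when libraries were left out in turn. Spred1 also missed the threshold with library totals (adjusted p = 0.1, edgeR).

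Of 12 targets of SRF and ternary complex factors, 7 rose and 2 fell in clone 8, with a median of 1.38. The share of all genes called in that clone was 8.00% higher and 8.60% lower. None of the 12 was called in clone 4, where their median was 0.20. Egr1, an immediate early factor, rose by 5.25 ± 0.73 (SE, edgeR adjusted p = 0.00834). It was at 5.77 and 6.12 CPM in vehicle clone 8 and 74.7 and 379 in 4OHT clone 8, and at 8.05 and 18.2 in vehicle and 55.4 and 75.9 in 4OHT in clone 4. The 4OHT libraries were above vehicle in both clones, and the clone 4 value of 2.32 ± 0.64 had an edgeR adjusted p of 0.234. Egr3 rose by 6.37 ± 1.31 (adjusted p = 0.0161) from at most 0.121 CPM in vehicle clone 8 to 1.09 and 9.03, on 0 and 4 counts in vehicle, so the size of its change is poorly set. Fos rose by 2.61 ± 0.52 (edgeR adjusted p = 0.0148), Ier2 by 0.74 ± 0.14 (adjusted p = 0.0121) and Vcl, which encodes vinculin of cell adhesions, by 1.83 ± 0.30 (adjusted p = 0.0101). Fos was at 3.57 and 7.05 CPM in vehicle clone 8 and 15.1 and 49.4 in 4OHT clone 8. In clone 4 it was at 19.8 and 16.4 in vehicle and 10.5 and 12.5 in 4OHT. Vcl was at 9.00 and 18.8 CPM in vehicle clone 8, 43.2 and 55.5 in 4OHT clone 8, and 40.2 to 45.2 in clone 4. Ier2 was at 129 and 134 CPM in vehicle clone 8, 203 and 236 in 4OHT clone 8, and 136 to 182 in clone 4. Each was thus lowest in vehicle clone 8. Actb, the most abundant of the list, fell by 0.36 ± 0.09 on the log2 scale (edgeR adjusted p = 0.0251), a call lost without 4OHT clone 8 replicate 1 (adjusted p = 0.0849) and with library totals (0.0629). The counts of this list were 5 higher and 1 lower without 4OHT clone 8 replicate 2, the library with the highest Egr1, Egr3 and Fos, and its median was then 0.81. Elk1, Elk3 and Elk4, which sit with SRF on the immediate early genes, passed no test themselves.

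Mapk3, which encodes an ERK kinase, fell in clone 8 by 0.87 ± 0.14 on the log2 scale (SE, edgeR adjusted p = 0.00929), from 67.4 and 60.9 to 37.1 and 33.2 CPM, with 42.7 to 47.2 in clone 4. No list had a gene called in clone 4, and every call in clone 8 named here for these lists was lost without vehicle clone 8 replicate 1.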

How the data were processed

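The authors deposited raw read counts per Ensembl gene, 1 column per library, without normalization, as the whole-number values show. Per the submitters' processing notes, bcl2fastq 2.19.1, STAR 2.5.3a and the mm10 build were used. The counting program, annotation release and use of strand are not given in the sources used here. Symbols were matched for 52403 identifiers and not for 233. Genes were kept by filterByExpr (minimum count 10, 4 groups), scaled by TMM and tested with edgeR 4.0.16 in R 4.3.3 (glmQLFit, glmQLFTest), with Benjamini-Hochberg adjustment over 18321 genes and a threshold of 0.05. The 4 groups were fitted together for contrasts within and between clones, and clone was an additive term for both clones together. Standard errors (SE) are the absolute log2 fold change over the square root of F. RPKM used the union of GENCODE M21 exons on GRCm38, the assembly of mm10. Alternatives were RLE factors, library totals, other filters, DESeq2 1.42.0, adjusted p under 0.01, fits of 1 clone, other terms, a replicate block and leaving out each library. The procedure was tested on simulated data.

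The members and lists were chosen with earlier results of these data known. Named with values are the members and, of each other list, genes called within a clone (the 5 of lowest p where more were called) and the gene with the highest mean count. All libraries were kept, since the counts of replicates differed beyond sampling error (chi-square over its degrees of freedom, 20.3 to 67.4). Depth was 33.3 to 72.5 M counts (M, mega) per library. 1 further gene of that naming rule is not reported here.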

Additional observations from a re-analysis of the deposited data

Results flagged for a closer look

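A library set apart from the rest of its condition was looked for in 22 values, and 1 was found, where chance gives 1.1: the total of 4OHT clone 4 replicate 2, at 72497700 counts to 6 digits. The other 6 results were singled out because the clones' responses to 4OHT differed by edgeR's test of that difference, given as clone 8 minus clone 4 on the log2 scale. Among the ETS genes these were Etv1 at 1.25 and Ets2 at 1.25. Among the genes of the other lists they were Fos at 3.26 (adjusted p = 0.0476), Vcl at 1.87 (adjusted p = 0.0491), Actb at -0.58 (adjusted p = 0.047) and Mapk3 at -0.99 (adjusted p = 0.0399), all by edgeR. None of these 6 calls held without vehicle clone 8 replicate 1, without either vehicle clone 4 library or without either 4OHT clone 4 library, and Vcl, Actb and Mapk3 also missed the threshold with library totals (adjusted p = 0.0505, 0.0587 and 0.0549).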

How the results depend on the processing

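Of 790 values of the 10 genes under the alternatives, 724 kept their direction and side of the threshold, 35 lost a call, 12 gained one and 19 changed sign, and the cause was not tested. For ETS genes called lower in clone 4 (0), 1 was called without an expression filter (1.19% of all genes called) and by DESeq2 (1.49%), and 0 to 1 as each library was left out. For those called higher in clone 8 (2), 1 remained in number at an adjusted p under 0.01, 0 in the clone 8 libraries alone, 3 without a filter (Etv5 added, 7.00% of all genes called), and 0 to 3 with each library left out. With library totals the higher share of all calls for the clone difference went from 38.2% to 52.1%. For the clone difference (2), there were 4 without a filter (3.24% of all genes called), 3 by DESeq2 (5.62%), 0 at 0.01 and 0 to 2 with each library left out. Over both clones (0), 1 was called higher without a filter (2.01% of all genes called) and 1 with the mean of the within-clone responses (5.80%), Ets2 in each (0.65 and 0.63). The shares without a filter are over 52636 genes and those of DESeq2 over 30973, against 18321 in the main fit. In clone 8, 2039 of all genes were called higher and 1644 lower without a filter, against 1465 and 1576 with it. For the clone difference these counts were 795 and 910, against 198 and 321. In vehicle (3 lower in clone 8), 0 passed 0.01, and 0 to 3 were called with each library left out. Sign changes in clone 4 were those of Gabpa with library totals (0.0137), without a filter (0.0117) and over libraries left out (-0.0726 to 0.0595), Ets2 (-0.0694 to 0.0943) and Elk3 (-0.83 to 0.12). In clone 8 they were Ets1 (-0.77 to 0.57) and Elk3 (-0.23 to 1.31). For the clone difference they were Etv4 (-0.11 to 0.23) and Ets1 (-1.11 to 0.23), and over both clones Etv5 (-0.0448 to 0.23), Ets1 (-0.0773 to 0.43) and Elk3 (-0.26 to 0.49). In vehicle they were Ets1 (-0.32 to 0.21) and Elk1 (-0.34 to 0.07003). Where a group kept 1 library, it was assumed to vary like the others.

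The replicate numbers 1 and 2 are shared between groups, but nothing says that they pair the libraries, and deviations of same-numbered libraries correlated at -0.03 to 0.09 over genes. With the replicate number as a block, ETS genes called were 0 in clone 4, 2 in clone 8, 2 for the clone difference, 0 over both clones and 3 in vehicle, the same genes as without it. Of the other named genes, the block ended the calls of Elf2 in clone 8 (adjusted p = 0.0527, edgeR), Cic in vehicle (0.0512) and Actb for the clone difference (0.062). Over all genes, 7 calls in clone 4 became 0, and 3041 in clone 8 became 1449 higher and 1537 lower. Low counts limit Elk3 and Ets1 most.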
